A study of Mus musculus with 4 samples.

Results

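The genes described here are 10 known targets of WNT signalling, measured by RNA-seq in mouse liver. Their symbols are Axin2, Tbx3, Lgr5, Rnf43, Znrf3, Nkd1, Sp5, Notum, Tcf7 and Tcf7l2. They were chosen by name, with earlier results of these data known, as 10 of the 17543 genes listed in any liver. All 10 were listed in every liver and all 10 passed the filter on low counts, as did 12837 genes in all. The livers came from C57BL/6 mice with the K307R point mutation on both copies of Ezh2 (2 livers, called K307R here) and from wild-type C57BL/6 mice (2 livers, WT). Ezh2 encodes a histone methyltransferase of the Polycomb group, which keeps genes repressed. The labels give no sex, age, litter or hour of collection, no origin of the mutant line, and do not say that replicates came from separate animals, so p values cover only how these samples scatter, and that scatter may be technical. The question of the series is which liver transcripts differ between the genotypes.

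WNT proteins bind Frizzled receptors and LRP coreceptors and thereby stop the destruction complex from degrading beta-catenin. Stabilised beta-catenin then acts with DNA-binding TCF/LEF proteins on target genes. Several of these targets encode inhibitors of the pathway itself, so that they report signalling and also limit it. In liver, WNT and R-spondin from endothelial cells of the central vein maintain the pericentral programme of hepatocytes, to which Axin2, Lgr5, Tbx3, Rnf43 and Znrf3 are known to belong in mice.

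Promoter windows were available for 6 of the 10 genes in the RefSeq table of GRCm38.p6, each with 250 bases before and 50 after an annotated start. They are given here because the members share a known control by TCF/LEF proteins, whose core binding letters are CTTTGA or CTTTGT. Both motifs were searched on both strands, counting overlapping matches. At least 1 match was present in 31.2% of all 32851 windows of this length, and in 2 of the 9 windows of these 6 genes. The Sp5 window is shown as the one with most matches, the Axin2 window as that of the gene with the largest fold change, and the second Tcf7l2 window as the other one with a match. Capitals mark the matches.
Sp5, chr2:70474673-70474972, plus strand: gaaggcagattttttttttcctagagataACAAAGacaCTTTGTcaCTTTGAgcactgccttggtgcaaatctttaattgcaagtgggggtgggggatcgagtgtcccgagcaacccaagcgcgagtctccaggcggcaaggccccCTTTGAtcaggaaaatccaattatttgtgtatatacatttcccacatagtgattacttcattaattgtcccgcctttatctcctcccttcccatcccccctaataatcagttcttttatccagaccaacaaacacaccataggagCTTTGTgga
Axin2, chr11:108920099-108920398, plus strand: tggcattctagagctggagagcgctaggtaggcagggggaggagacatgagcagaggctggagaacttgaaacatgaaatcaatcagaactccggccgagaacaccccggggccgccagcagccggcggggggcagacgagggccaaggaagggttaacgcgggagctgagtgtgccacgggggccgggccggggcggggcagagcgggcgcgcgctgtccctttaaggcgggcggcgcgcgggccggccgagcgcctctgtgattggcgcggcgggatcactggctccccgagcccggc
Tcf7l2, second window, chr19:55895071-55895370, plus strand: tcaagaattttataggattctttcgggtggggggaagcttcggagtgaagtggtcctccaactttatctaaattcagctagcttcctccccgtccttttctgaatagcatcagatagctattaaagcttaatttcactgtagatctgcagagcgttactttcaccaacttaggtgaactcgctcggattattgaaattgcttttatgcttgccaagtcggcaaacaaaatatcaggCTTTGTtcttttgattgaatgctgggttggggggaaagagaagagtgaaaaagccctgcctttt

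The Sp5 window held 5 matches that did not overlap, and 5 or more were present in 12 of the 32851 windows (0.0365%), Sp5 included. The cutoff of 5 was taken from Sp5 itself, as the largest count among the windows of these genes, so this share is a description. Counted from the start site as 0, their first bases lay at -221, -212, -204, -104 and 41, and the match at -221 was on the minus strand. The second Tcf7l2 window held 1 match at -14, and the first Tcf7l2 window and those of Axin2, Rnf43, Nkd1 and Tcf7 held none. The only windows of Axin2 and of Nkd1 lie inside the spans given for these genes below, so the bases before those spans were not searched. A match describes the letters of a window and is not a binding site.

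Among the 10 targets, Axin2 and Tbx3 rose in the K307R livers and 8 did not pass the test, while none fell. At an unadjusted p under 0.05 there were 7 of the 10, against 16.8% of all genes tested. A gene was called at a Benjamini-Hochberg adjusted p under 0.05 in edgeR's quasi-likelihood test across all 12837 genes, at which 2.86% of genes were called in either direction, 1.39% higher and 1.47% lower. With total-count scaling the genes called were 188 higher and 124 lower (60.3% higher), against 178 and 189 (48.5% higher) in the main test. The estimated log2 fold change of K307R over WT was above 0 for all 10, with a median of 0.85, against a median of 0.01 over all genes, of which 51.1% were above 0. For 9 of the 10, both K307R livers lay above both WT livers, which was so for 25.2% of all genes tested. Because the targets were chosen with earlier results of these data known, the shares of all genes are a background and not a test. Summed over the 10 genes, the level was 151.9 and 197.5 CPM in the K307R livers against 101.4 and 80.1 CPM in the WT livers. CPM are reads scaled to a common library size. Tcf7 was the member whose genotypes overlapped.

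**Figure D1:**
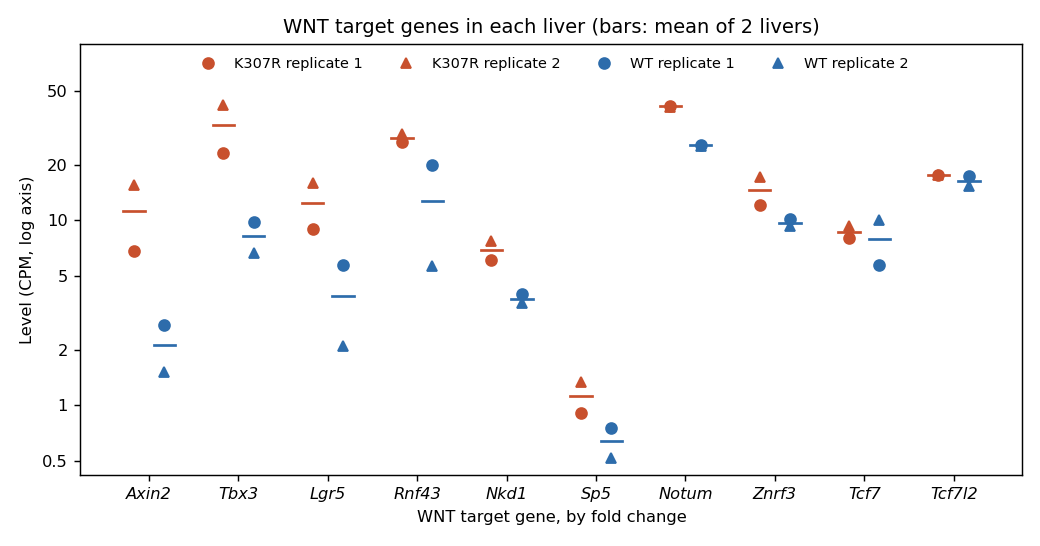
Level of each WNT target gene in each liver, in CPM on a log axis, ordered by fold change, with K307R in orange left of WT in blue, a symbol per replicate and a bar at the mean of 2 livers. For 9 of the 10 genes both orange symbols lie above both blue ones, and for Tcf7 they overlap.

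The genotypes also differed in other ways that run with each of these values. Xist, the RNA of the inactive X chromosome in female cells, was at 327 and 573 CPM in the K307R livers and at 0.347 and 0.284 CPM in the WT livers, and the Y-linked genes Ddx3y, Eif2s3y, Uty and Kdm5d had 0 reads in the K307R livers against a range of 10.6 to 67.6 CPM in the WT livers. Genotype and sex-chromosome pattern thus coincided in all 4 livers and cannot be told apart. Arntl, the clock activator also called Bmal1, which was chosen after its values were seen, was at 12.3 and 23.7 CPM in the K307R livers against 1.10 and 1.18 CPM in the WT livers, and its part in the results was not tested. Ezh2 itself was at 3.45 and 2.56 CPM in K307R livers and at 3.36 and 3.93 CPM in WT livers, which overlap (edgeR adjusted p = 0.736), and gene counts do not check a point mutation. The libraries held 18602928 and 18749610 expected counts in K307R and 19289715 and 20044832 in WT.

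Axin2 encodes a scaffold of the destruction complex and is a widely used readout of beta-catenin activity (Entrez gene 12006, chromosome 11 from 108917828 to 108950783, mm10). It had 129 and 303 reads in the K307R livers against 47 and 32 reads in the WT livers, or 6.84 and 15.5 CPM against 2.72 and 1.51 CPM. Both mutant livers were higher than both wild-type livers, and the mutant livers also differed from each other by more than the wild-type livers did. Axin2 rose by 2.41 (SE 0.46) on the log2 scale, a 5.32-fold change with a 95% interval of 1.34 to 3.48 on the log2 scale (edgeR adjusted p = 0.0395). The call rests on K307R replicate 2, since without that liver the log2 fold change was 1.70 and the edgeR adjusted p 0.148. Its promoter window, shown above, held no match to either motif. That window lies inside the gene's span, from 108920099 to 108920398, and the bases before 108917828 were not searched.

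Tbx3 encodes a T-box transcription factor that acts mainly as a repressor (Entrez gene 21386, chromosome 5 from 119670534 to 119684724). Its level was 23.2 and 42.3 CPM in the K307R livers and 9.78 and 6.67 CPM in the WT livers, again with the groups apart. Tbx3 rose by 1.998 (SE 0.33) on the log2 scale, a 3.99-fold change with a 95% interval of 1.23 to 2.76 (edgeR adjusted p = 0.0255). It kept its call whichever of the 4 livers was left out, with log2 fold changes of 1.503 to 2.37. On FPKM values it missed the threshold in limma (adjusted p = 0.0614 on log2(FPKM + 1) and 0.0524 on log2(FPKM + 0.1)).

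Sp5 encodes a zinc-finger transcription factor of the Sp family (Entrez gene 64406, chromosome 2 from 70474923 to 70477726). It was the member with the fewest reads, 17 and 26 in the K307R livers and 13 and 11 in the WT livers. These are 0.902 and 1.33 CPM in K307R against 0.752 and 0.521 CPM in WT. The log2 fold change of 0.82 (SE 0.50) did not pass the test (edgeR adjusted p = 0.476). Its 95% interval of -0.35 to 1.99 runs from below 0 to just under the estimate for Tbx3. The count of 5 TCF/LEF core matches in its promoter window thus stands beside the least precise values among the targets.

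Lgr5 encodes a receptor for R-spondins, the secreted proteins that strengthen WNT signals (Entrez gene 14160, chromosome 10 from 115450314 to 115587780). It was at 8.97 and 16.0 CPM in the K307R livers and at 5.73 and 2.08 CPM in the WT livers. The groups did not overlap, but the WT livers differed from each other by a wide margin. The log2 fold change of 1.69 (SE 0.47, 95% interval 0.59 to 2.79) did not pass the threshold (edgeR adjusted p = 0.118). Without WT replicate 1 it was 2.58 with an edgeR adjusted p of 0.00167, whereas without WT replicate 2 it was 1.12 (0.125) and without K307R replicate 2 it was 1.21 (0.416).

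Rnf43 and Znrf3 encode related membrane ubiquitin ligases that remove Frizzled receptors from the cell surface and that R-spondins, bound to LGR receptors, inhibit. Rnf43 (Entrez gene 207742, chromosome 11 from 87663087 to 87735539) was at 26.6 and 29.4 CPM in the K307R livers against 19.8 and 5.63 CPM in the WT livers. Here the mutant livers were alike and WT replicate 2 stood far below WT replicate 1. The log2 fold change was 1.15 (SE 0.48, edgeR adjusted p = 0.282), and it depended on which WT liver was kept. Without WT replicate 1 it was 2.31 (edgeR adjusted p = 2.44e-04), and without WT replicate 2 it was 0.49 (edgeR adjusted p = 0.415). Znrf3 (Entrez gene 407821, chromosome 11 from 5276329 to 5444847) was at 12.1 and 17.1 CPM in the K307R livers and at 10.1 and 9.33 CPM in the WT livers. Its log2 fold change was 0.59 (SE 0.24, edgeR adjusted p = 0.264), with a 95% interval of 0.04 to 1.14. Both ligases were thus higher in each mutant liver than in each wild-type liver, with neither past the test.

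Nkd1 and Notum encode inhibitors at other steps. Nkd1, which binds Dishevelled inside the cell (Entrez gene 93960, chromosome 8 from 88521342 to 88594887), was at 6.10 and 7.72 CPM in the K307R livers against 3.99 and 3.55 CPM in the WT livers. The log2 fold change of Nkd1, 0.88 (SE 0.28), did not pass the test (edgeR adjusted p = 0.163). Notum, a secreted esterase that removes the lipid WNT proteins need for receptor binding (Entrez gene 77583, chromosome 11 from 120653788 to 120661193), had nearly equal replicates, at 41.6 and 41.1 CPM in the K307R livers and at 25.5 and 25.4 CPM in the WT livers. The near equality of the WT livers depends on the scaling, since Notum had 440 and 536 reads there, against 784 and 804 in the K307R livers. The difference between genotypes was larger than the spread within each. The log2 fold change was 0.70 (SE 0.18, 95% interval 0.28 to 1.12), a 1.63-fold change that did not pass the threshold (edgeR adjusted p = 0.0930), and it ranged only from 0.69 to 0.78 over the 14 other settings.

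Tcf7 and Tcf7l2 encode DNA-binding partners of beta-catenin, called TCF1 and TCF4, and are both targets and effectors of the pathway. Tcf7 (Entrez gene 21414, chromosome 11 from 52246527 to 52283383) was at 8.01 and 9.31 CPM in the K307R livers, between the 5.73 and 10.04 CPM of the WT livers. Its log2 fold change was 0.13 (SE 0.30, 95% interval -0.57 to 0.83, edgeR adjusted p = 0.876), and without WT replicate 1 it was -0.21. Tcf7 is also known as a gene of T lymphocytes, and 14 markers of T and NK lymphocytes summed to 22.2 and 19.4 CPM in the K307R livers against 10.5 and 12.2 CPM in the WT livers. Zap70 alone made up 13.6 and 11.6 CPM of this in K307R against 4.11 and 3.64 CPM in WT livers, and the other 13, a split chosen after the values were seen, summed to 8.59 and 7.78 CPM in K307R and to 6.42 and 8.57 CPM in WT livers, which overlap. The part of those cells in the Tcf7 level was not tested. Tcf7l2 (Entrez gene 21416, chromosome 19 from 55741797 to 55933659) was at 17.5 and 17.7 CPM in the K307R livers and at 17.3 and 15.4 CPM in the WT livers. Both mutant livers were above both wild-type livers by a small margin. For Tcf7l2 the log2 fold change was 0.11 (SE 0.19, 95% interval -0.34 to 0.55, edgeR adjusted p = 0.834). Where the spans of targets overlap other listed genes, as those of Rnf43 with 1110028F11Rik and of Tcf7 with Skp1, reads could have been divided between them, since no source used here gives the strand setting.

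**Figure D2:**
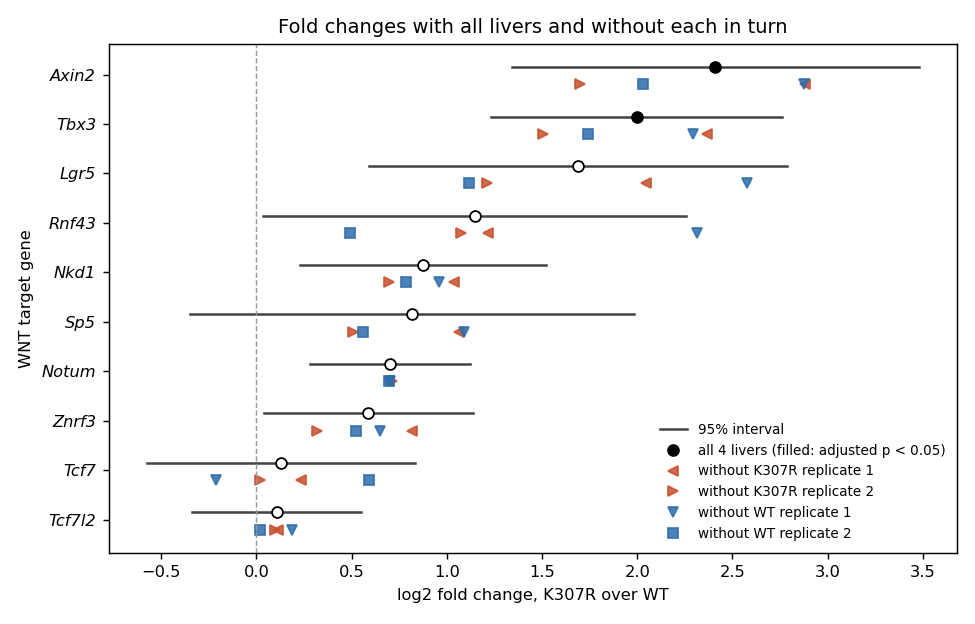
Log2 fold change of K307R over WT for each WNT target gene, with circles and 95% intervals from all 4 livers (filled where the adjusted p was under 0.05) and coloured symbols for the values without each liver. Axin2 and Tbx3 are filled, the Notum symbols nearly coincide, and a value below 0 appears for Tcf7 at -0.21 without WT replicate 1.

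The livers of a genotype also differed from each other in a shared way. K307R replicate 2 was above K307R replicate 1 for 9 of the 10 targets, with Notum as the exception, against 50.004% of all genes tested. WT replicate 1 was above WT replicate 2 for 9 of the 10, with Tcf7 as the exception, against 49.3% of all genes. Both held for 8 of the 10, against 23.1% of all genes. The orders counted follow the direction seen in these same values, and targets measured in the same liver are not independent observations. These counts are thus a description.

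Levels can be compared between genes per length, in FPKM, which the authors scaled to transcript length and library depth. In the K307R livers Notum was highest, at 21.0 ± 0.276 FPKM (SD, n = 2 livers, as for the following levels). Tbx3 (7.15 ± 3.09) and Rnf43 (6.57 ± 0.594 FPKM) came next and overlapped each other. Tcf7l2 was at 4.52 FPKM in each mutant liver, below both of them. Tcf7 (3.36 ± 0.445), Lgr5 (2.70 ± 1.12), Axin2 (2.67 ± 1.51) and Znrf3 (2.18 ± 0.580 FPKM) overlapped from neighbour to neighbour, as did Znrf3 and Nkd1 (1.64 ± 0.297 FPKM), and Sp5 was lowest at 0.545 ± 0.163 FPKM. In the WT livers Notum was again highest, at 12.2 ± 1.39 FPKM. Tcf7l2 (3.98 ± 0.255), Tcf7 (2.95 ± 1.43) and Rnf43 (2.70 ± 1.91 FPKM) followed and overlapped. Tbx3 (1.66 ± 0.255 FPKM), which overlapped Rnf43, lay above Znrf3 (1.35 ± 0.106) in each liver, and Znrf3 above Nkd1 (0.845 ± 0.0212 FPKM). Lgr5 (0.765 ± 0.431) overlapped Nkd1 and Axin2 (0.465 ± 0.134 FPKM), and Sp5 was again lowest at 0.290 ± 0.0424 FPKM. Tbx3 and Axin2 were thus below Tcf7l2 by level in all WT livers, while Tbx3 was above it in both mutant livers.

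Of the 10 targets, 5 had several RefSeq transcripts in the tables. Reads of overlapping transcripts are divided by estimation, so these shares are a description. Tbx3 was represented by NM_011535 and NM_198052. NM_011535 held 75.6% and 84.3% of the Tbx3 count in the K307R livers and 58.7% and 75.2% in the WT livers. Its FPKM was 3.78 and 7.90 in K307R against 1.09 and 1.12 in WT, and that of NM_198052 was 1.18 and 1.43 in K307R against 0.75 and 0.36 in WT. Both transcripts of Tbx3 were thus higher in each mutant liver than in each WT liver.

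In the edgeR test across 16849 transcripts, 0.0% were called, with 1812 at an unadjusted p under 0.05 and a smallest adjusted p of 0.251, so 0 of the 18 target transcripts tested were called and 3 were at an unadjusted p under 0.05. No other tool was run on transcripts. The log2 fold change was 2.31 (SE 0.43, edgeR adjusted p = 0.295) for NM_011535 and 1.12 (SE 0.56, edgeR adjusted p = 0.615) for NM_198052. For Znrf3 it was 1.06 (SE 0.57) for NM_001080924 and 0.34 (SE 0.35) for NM_001290501. For Znrf3, Nkd1 and Tcf7 the shares overlapped between genotypes, as they did for 5 of the 6 Tcf7l2 transcripts. For Nkd1, NM_001163660 held 29.1% and 0% of the count in the K307R livers and 41.0% and 0% in the WT livers. For Tcf7l2, NM_001142923 ranged from 14.4% to 17.4% in K307R but held 62.4% and 5.90% in WT, although the whole gene was at 17.3 and 15.4 CPM there. Its transcript NM_001142920 held 30.6% and 43.6% in the K307R livers against 19.8% and 12.7% in the WT livers, without overlap (log2 fold change 1.30, SE 0.47, edgeR adjusted p = 0.470).

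**Figure D3:**
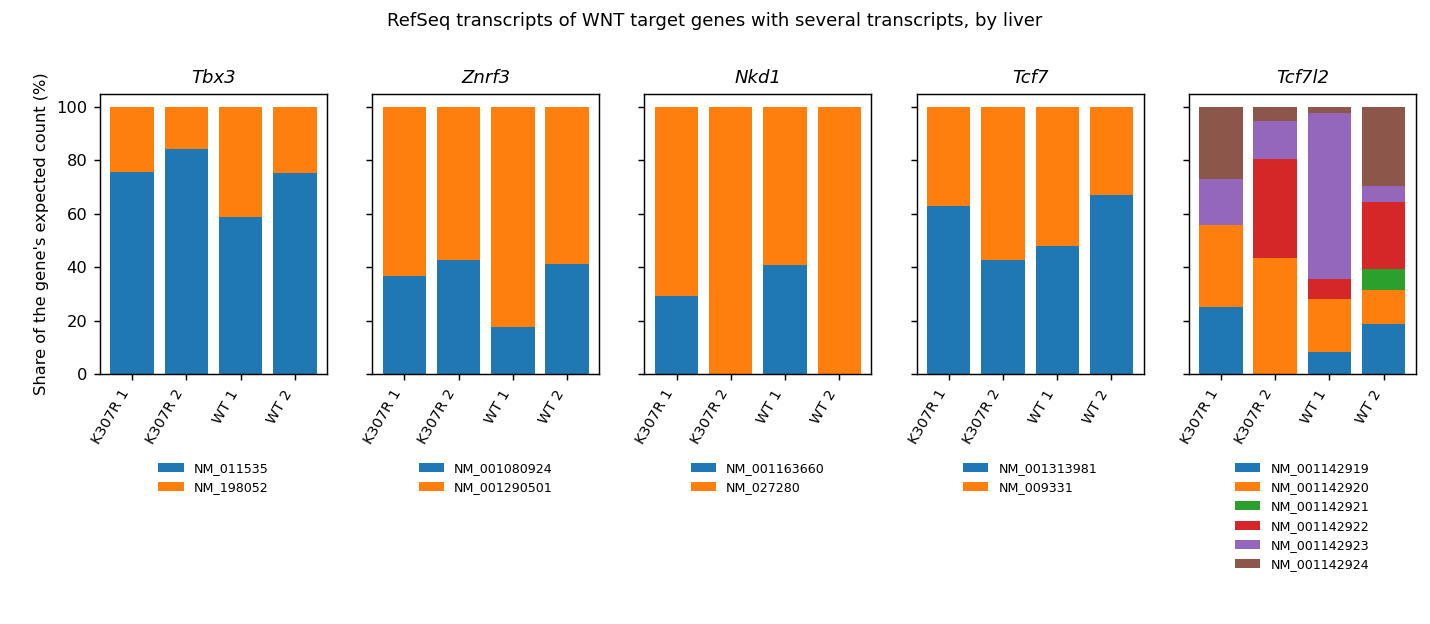
Share of each gene's expected count, in percent, held by each RefSeq transcript in each liver, for the 5 targets with several transcripts, with K307R livers left of WT livers. The larger Tbx3 transcript share reaches 84.3% in K307R replicate 2, and the Nkd1 and Tcf7l2 shares differ widely between livers of the same genotype.

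The genes that carry the signal to these targets were read from the same fit, in 10 lists that held 96 tested genes besides the targets, of which 8 were called. Over all 12837 genes tested, 2.86% were called in either direction and 51.1% had estimates above 0. Both K307R livers lay above both WT livers for 25.2% of them. The lists were chosen with earlier results of these data known, so these shares are a background for the counts below and not a test. Of 19 WNT ligands, 8 had no row and were not analysed here, and 7 were tested, none of which was called, with a median log2 fold change of 0.47. Wnt2, a ligand of central vein endothelium, was at 1.01 and 1.79 CPM in K307R livers and at 0.926 and 0.189 CPM in WT livers (edgeR adjusted p = 0.390). Wnt9b, another endothelial ligand, was at 0.265 and 0.563 CPM in K307R and at 0.289 and 0.852 CPM in WT livers (edgeR adjusted p = 0.792), with a log2 fold change of -0.48 that was 0.51 without WT replicate 2. Wnt4 (0.84), Wnt2b (0.84) and Wnt5a (0.47) had log2 fold changes above 0 and edgeR adjusted p values of 0.316, 0.465 and 0.628. Ligands at these levels rest on few reads. Wnt5b, the tested ligand with most reads, was at 4.09 and 3.99 CPM in K307R against 4.63 and 4.97 CPM in WT livers, without overlap. Its log2 fold change was -0.25 (edgeR adjusted p = 0.722) and that of Wnt9a was -0.13 (0.949). Of the 7 tested ligands, 4 had estimates above 0. The summed level of 10 endothelial markers was 136.9 and 150.4 CPM in K307R and 95.4 and 132.8 CPM in WT livers, and in whole liver fewer cells of a type and less RNA per cell cannot be told apart.

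Of the R-spondins and their receptors besides Lgr5, 3 genes were tested and none was called. Rspo3, the R-spondin of central vein endothelium, was at 4.03 and 3.07 CPM in K307R livers against 1.62 and 2.22 CPM in WT livers, without overlap (log2 fold change 0.88, SE 0.36, edgeR adjusted p = 0.275). Lgr4, the more widely expressed relative of Lgr5, was at 56.3 and 36.4 CPM in K307R and at 65.0 and 44.3 CPM in WT livers, with overlap. Its log2 fold change of -0.24 (edgeR adjusted p = 0.736) was 0.07 without WT replicate 1 and 0.05 without K307R replicate 2. Rspo1 had a log2 fold change of -0.90 that was 0.21 without WT replicate 2 (edgeR adjusted p = 0.603 with all livers). Porcn, the acyltransferase that lipidates WNT proteins, and Wls, which carries them to the cell surface, had log2 fold changes of 0.98 and 0.53 (edgeR adjusted p = 0.140 and 0.521).

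Among 9 tested Frizzled and LRP receptors, Fzd7 and Fzd8 rose, none fell, and the median log2 fold change was 0.34. Fzd8 was at 21.2 and 24.1 CPM in K307R livers against 8.22 and 7.81 CPM in WT livers, a log2 difference of 1.501 (SE 0.20, edgeR adjusted p = 0.0116). Fzd7 was at 22.5 and 21.1 CPM in K307R livers against 9.49 and 8.19 CPM in WT livers, a log2 difference of 1.30 (SE 0.20, edgeR adjusted p = 0.0197), which missed the threshold in limma on log2(FPKM + 1) (adjusted p = 0.0541) and on log2(FPKM + 0.1) (0.0508). For both receptors the livers of a genotype lay close together, unlike those of Axin2 and Lgr5. Lrp5, a WNT coreceptor, was at 64.9 and 123.7 CPM in K307R against 48.0 and 49.1 CPM in WT livers and was not called (log2 fold change 0.96, edgeR adjusted p = 0.151), and its log2 fold change was 1.35 without K307R replicate 1 (0.0184) but 0.42 without K307R replicate 2 (0.562). For Fzd1 the log2 fold change was 0.57 (edgeR adjusted p = 0.265). Lrp6, the other coreceptor, was at 57.7 and 64.0 CPM in K307R and at 65.8 and 61.7 CPM in WT livers. Its log2 fold change was -0.07 (edgeR adjusted p = 0.892). Of the 9 tested receptors, 6 had estimates above 0.

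None of 3 tested secreted inhibitors was called: the log2 fold change was 1.52 for Dkk3, -0.83 for Sfrp1 and 0.06 for Frzb, the last being -0.26 without WT replicate 1. None of 16 tested genes of the destruction complex and the Dishevelled family, the relay between receptor and complex, was called either, with a median of 0.02. The 4 with the smallest p were Dvl2 (-0.57), Dvl1 (-0.30), Dvl3 (0.33, or -0.30 without K307R replicate 2) and Usp34 (0.22, or -0.07 without K307R replicate 2), in log2 fold change. Axin2 thus rose while no other tested gene of the complex was called.

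Of 12 tested genes of beta-catenin and its nuclear partners other than Tcf7 and Tcf7l2, none was called, and the median log2 fold change was 0.28. Bcl9l, a coactivator that binds beta-catenin, was nearest, at 33.2 and 48.9 CPM in K307R livers and 17.2 and 21.0 CPM in WT livers (log2 fold change 1.10, SE 0.24, edgeR adjusted p = 0.0603), and without single livers its edgeR adjusted p ranged from 0.0298 (without K307R replicate 1) to 0.229 (without K307R replicate 2). For Tle3, a corepressor of TCF proteins, the log2 fold change was 0.91 (edgeR adjusted p = 0.101, from 0.0212 without WT replicate 1 to 0.293 without K307R replicate 2), and Tle2 and Bcl9 had 0.69 and 0.68. Ctnnb1, the gene of beta-catenin, was chosen after its values were seen. It was at 184.2 and 169.5 CPM in K307R livers and at 196.1 and 163.8 CPM in WT livers, with a log2 fold change of -0.03 (SE 0.21, 95% interval -0.52 to 0.47, edgeR adjusted p = 0.971).

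**Figure D4:**
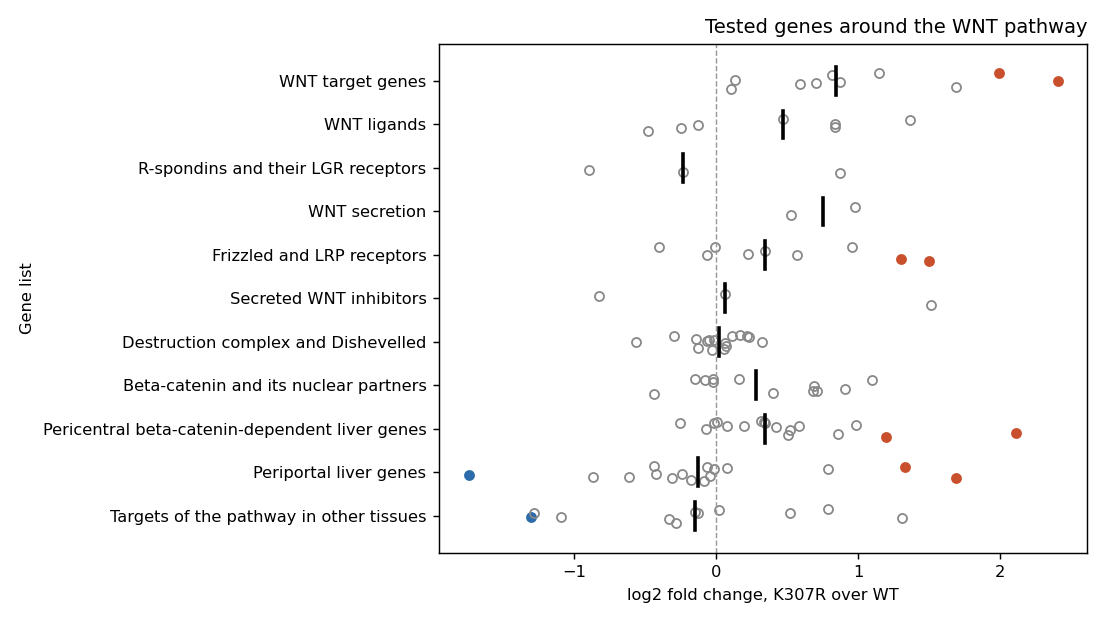
Log2 fold change of K307R over WT (horizontal axis) for every tested gene of each list around the WNT pathway, with genes called higher in orange, called lower in blue and not called as open circles, and a black bar at each list's median. Axin2 and Tbx3 are the orange points of the target list, whose median is 0.85, and the destruction complex list centres on 0.02.

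Hepatocyte genes that depend on beta-catenin near the central vein were set beside the targets. Of 17 such genes, Oat and Nr1i3 rose, none fell, and the median log2 fold change was 0.34. Estimates were above 0 for 14 of the 17. Cyp1a2 was at 826 and 696 CPM in K307R and at 980 and 560 CPM in WT livers (log2 fold change -0.02, edgeR adjusted p = 0.988). For Gulo the log2 fold change was -0.07 (0.934). Prodh, at 179.1 and 123.6 CPM against 180.2 and 180.7 CPM, was lower without overlap (-0.25, 0.657). Oat, ornithine aminotransferase, was at 351.7 and 694.9 CPM in K307R livers against 157.9 and 84.4 CPM in WT livers (log2 fold change 2.11, SE 0.41, edgeR adjusted p = 0.0426). Its livers were ordered as for Axin2, with K307R replicate 2 highest and WT replicate 2 lowest, and its adjusted p was 0.0877 in edgeR without K307R replicate 2 and 0.0566 in limma on log2(FPKM + 1). Nr1i3, the nuclear receptor CAR, was at 94.2 and 143.4 CPM in K307R livers against 53.3 and 50.1 CPM in WT livers (log2 fold change 1.20, SE 0.24, edgeR adjusted p = 0.0441), and it missed the threshold without K307R replicate 2 (0.121) or WT replicate 2 (0.0626), in limma-voom (0.0539) and in limma on log2(FPKM + 1) (0.0768).

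Glul, glutamine synthetase and the classical marker of the innermost pericentral hepatocytes, was not called. It was at 769.8 and 1324 CPM in K307R livers and at 951.6 and 447.3 CPM in WT livers, which overlap (log2 fold change 0.58, SE 0.41, edgeR adjusted p = 0.537). Cyp2e1, a pericentral cytochrome P450, was at 6454 and 7066 CPM in K307R livers against 4194 and 2647 CPM in WT livers (log2 fold change 0.98, edgeR adjusted p = 0.158, from 0.0141 without WT replicate 1 to 0.442 without K307R replicate 2). For Slc1a2, a glutamate transporter, the log2 fold change was 0.86 (edgeR adjusted p = 0.286, from 0.0441 without WT replicate 1 to 0.807 without K307R replicate 2).

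Of 16 tested periportal genes, 2 rose, 1 fell, and the median log2 fold change was -0.13. Ctsc, a lysosomal protease, was at 210.1 and 179.0 CPM in K307R livers against 63.0 and 57.5 CPM in WT livers (log2 fold change 1.69, edgeR adjusted p = 0.0080). Hsd17b6, a steroid dehydrogenase, rose by 1.33 on the log2 scale (edgeR adjusted p = 0.0249, or 0.0502 without K307R replicate 1), and Cdh1, E-cadherin, fell by 1.75 on the log2 scale (edgeR adjusted p = 0.0071). For Hal, histidine ammonia lyase, the log2 fold change was 0.79 (edgeR adjusted p = 0.145). Called periportal genes were thus found in both directions.

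Of 11 tested genes known as targets of the pathway in other tissues, none rose and Myc fell, with a median log2 fold change of -0.15. Myc, a growth-promoting transcription factor, was at 3.29 and 3.79 CPM in K307R livers against 8.51 and 8.99 CPM in WT livers (edgeR adjusted p = 0.0428), but its edgeR adjusted p was 0.154 without K307R replicate 1, 0.115 without K307R replicate 2 and 0.0907 with total-count scaling, and its adjusted p was 0.0528 in limma-voom and 0.0980 in limma on log2(FPKM + 1). Jun had a log2 difference of -1.29 (edgeR adjusted p = 0.0550, from 0.00321 without WT replicate 1 to 0.166 without K307R replicate 1), Sox9 of 1.31 (0.212) and Bmp4 of -1.10 (0.246).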

How the data were processed

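RNA was extracted from 4 livers with TRIzol and sequenced at BGI, per the labels' protocols. The submitters' processing notes name HISAT, Bowtie2, RSEM and the mm10 build, without versions. The authors deposited for each liver a table of transcripts with their length, expected counts and FPKM (fragments scaled to transcript length and library depth). No source used here gives the strand setting.

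For each Entrez gene, the expected counts of its transcripts were added and rounded to whole numbers, and FPKM were summed per gene, with a transcript that has no row in a liver taken as 0 there. edgeR 4.0.16 in R 4.3.3 tested K307R against WT by its quasi-likelihood F test, with filterByExpr, TMM scaling and Benjamini-Hochberg adjustment over 12837 genes. CPM use the TMM-scaled library sizes. Transcripts were tested in the same way. limma 3.58.1 and DESeq2 1.42.0 served as alternatives, with other scalings, other filters, FPKM on a log2 scale, a replicate block and the omission of each liver. All intervals from the model cover the spread between 4 livers.

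The targets and the lists were chosen with earlier results of these data known. Named were all 10 targets, the called genes of each list, further genes by smallest p up to 4 per list, a preset group (Glul, Cyp2e1, Wnt2, Wnt9b and Rspo3), Ezh2 and the sex chromosome genes. Wnt5b, Wnt9a, Lrp6, Tle1, Tle4, Ctnnb1, Cyp1a2, Gulo, Prodh and Arntl were added after the values were seen, without their values under other settings. Replicates of a genotype differed by more than counting noise (chi-square per gene 48.3 in K307R and 88.5 in WT), so none was taken as the same library sequenced again. These means weigh genes with many reads most. They cannot tell separate animals from separate libraries of the same animal.

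Cell type markers gave these summed levels, K307R livers before WT livers: Kupffer cells 501.5 and 347.9 against 285.8 and 332.5 CPM, T and NK lymphocytes 22.2 and 19.4 against 10.5 and 12.2 CPM (8.59 and 7.78 against 6.42 and 8.57 CPM without Zap70), B lymphocytes 8.01 and 5.06 against 6.42 and 7.53 CPM, stellate cells 317.1 and 242.8 against 169.8 and 295.1 CPM, bile duct epithelium 50.6 and 86.3 against 91.3 and 71.3 CPM, and hepatocytes 121902 and 125545 against 132430 and 132242 CPM. Of their tested genes, 1 lymphocyte gene (Zap70) and 1 stellate gene (Dcn) were called higher, 2 stellate genes (Col1a1 and Col1a2) lower, and no other marker, endothelial ones included. No gene of these lists that is in the tables was at 0 in all livers, and their part in the results was not tested.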

Additional observations from a re-analysis of the deposited data

How the results depend on the processing

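Of 137 values of the 10 targets under alternatives, 125 kept their direction and their side of the threshold, 7 lost the call, 4 gained it and 1 changed sign. Axin2 lost its call with the replicate block (log2 fold change 2.33, adjusted p = 0.0686), limma-voom (2.36, 0.0710), limma on log2(FPKM + 1) (1.26, 0.115) and on log2(FPKM + 0.1) (2.20, 0.0952), and ranged from 1.70 to 2.88 without each liver in turn. Tbx3 lost its call in limma on log2(FPKM + 1) (1.56) and log2(FPKM + 0.1) (1.98) and ranged from 1.503 to 2.37 without each liver. Lgr5 was called by DESeq2 (adjusted p = 0.0112) and with no filter (edgeR adjusted p = 0.0146). The number of targets called was 1 with the replicate block, 1 with limma-voom, 0 on either FPKM scale (where Sp5 was filtered out) and 1 to 4 without each liver, being 1 without K307R replicate 2 and 4 without WT replicate 1. Same-numbered livers did not deviate together (correlation -0.0027), so the numbers were not taken to pair the livers, and the replicate block called 347 genes. With it the calls of Oat (adjusted p = 0.0743), Nr1i3 (0.0519) and Myc (0.0591) were lost, and Bcl9l (0.0424) and Jun (0.0336) were called, all in edgeR. Over all genes, 829 were called with no filter, 738 by DESeq2, 163 on log2(FPKM + 1), 161 on log2(FPKM + 0.1) and 211 to 720 without each liver. The 8 called pathway genes outside the targets numbered 5 to 12 without each liver, 5 being without K307R replicate 2. Signs changed within the ranges left by omitting each liver: Tcf7 -0.21 to 0.59 and Frzb -0.26 to 0.50 (negative without WT replicate 1), Rspo1 -1.75 to 0.21 and Wnt9b -1.11 to 0.51 (positive without WT replicate 2), Lgr4 -0.58 to 0.065 (positive without WT replicate 1, and 0.046 without K307R replicate 2), Dvl3 -0.30 to 0.76 and Usp34 -0.066 to 0.45 (negative without K307R replicate 2). The cause of these shifts was not tested. With 2 livers a genotype and 17 to 26 reads of Sp5 in K307R against 11 to 13 in WT, Sp5 had the least depth of the targets.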
